A study of Mus musculus with 6 samples.

Results

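The genes of the AMPA and NMDA receptor subunits were followed through the cells of the mouse olfactory bulb. The members are the 4 AMPA receptor subunit genes Gria1, Gria2, Gria3 and Gria4 and the 6 NMDA receptor subunit genes Grin1, Grin2a, Grin2b, Grin2c, Grin2d and Grin3a, chosen by name. All 10 were among the 18560 genes of the count table. Single cells of dissociated bulbs of C57BL/6NJ mice, 14 weeks of age, were profiled in 6 libraries. Control mice had no manipulation per the labels, and naris occluded mice had 1 naris plugged, which kept odour from the bulb on that side. Olfactory trained mice learned an odour task, for which the study's methods give water deprivation and a water reward. Each condition had 2 libraries. Each library was a pool of 3 mice, so the spread between libraries is a spread between pools. The study mostly describes its controls in the same way as the labels, while a passage of its text gives the open side of occluded mice as control, and which of these the control libraries hold is not settled here.

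AMPA and NMDA receptors are cation channels opened by glutamate, and each is built of 4 subunits. AMPA receptors carry the fast part of excitatory transmission, and the subunit encoded by Gria2, once its RNA is edited, makes them nearly impermeable to calcium. Every NMDA receptor needs the subunit encoded by Grin1, to which Grin2 subunits add the glutamate site and set the kinetics. In the bulb, mitral and tufted cells release glutamate onto the dendrites of granule and periglomerular cells, which are inhibitory and are renewed by neurons born in the adult, and those cells inhibit the mitral and tufted cells in return.

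On the GRCm38.p6 assembly, the version of mm10 in the RefSeq gene table, the members lie on 9 chromosomes. Gria1 spans chr11:57011571-57330244 and Grin2c chr11:115249169-115267297, on the same chromosome. Gria2 spans chr3:80681450-80804227, Gria3 chrX:41400819-41678601 and Gria4 chr9:4417893-4796234. Grin1 spans chr2:25291177-25319187, Grin2a chr16:9567901-9996083, Grin2b chr6:135713221-136173615, Grin2d chr7:45831883-45871194 and Grin3a chr4:49661611-49846023. The longest of these genes is Grin2b, with 460395 bases, and the shortest is Grin2c, with 18129 bases.

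The RefSeq promoter table of the same assembly held windows of 300 bases for 5 of the 10 members: Grin1, Gria2, Grin2d, Gria4 and Grin2c. Because Gria2 was the member with the most UMIs and was high in neurons and astrocytes alike, its window is shown. It lies inside the gene span given above, at a start site downstream of the outermost end of that span. The window was searched for RE1, the element bound by the repressor REST, which holds neuronal genes down in other cells. The element was searched on both strands as TTCAGCACC, any 2 bases, then GGACAGCG, allowing 3 mismatches among the 17 letters. The capitals mark the match, which lies on the opposite strand and has 1 mismatch.
Gria2 start-site window, chr3:80802786-80803085, minus strand: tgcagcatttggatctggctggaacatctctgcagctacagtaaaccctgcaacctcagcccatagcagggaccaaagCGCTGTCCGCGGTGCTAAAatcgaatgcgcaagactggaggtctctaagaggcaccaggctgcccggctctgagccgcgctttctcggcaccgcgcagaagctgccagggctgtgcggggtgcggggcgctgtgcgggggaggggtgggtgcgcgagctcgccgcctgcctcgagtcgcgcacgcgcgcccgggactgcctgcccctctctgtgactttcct
Of the 32851 promoter windows in the table, 52 (0.158%) held a match. The best alignments in the other 4 members had 6 or 7 mismatches. The match is a description of these letters, and no binding was measured.

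The 6 libraries held 6705 to 10570 annotated cells and 11841160 to 17065083 UMIs (unique molecular identifiers, each counting 1 captured RNA molecule). The median UMIs per cell ranged from 1028 in olfactory trained replicate 1, the shallowest library, to 1723.5 in naris occluded replicate 1. The deposited annotations gave 18 neuronal clusters (names starting with n; GC granule cells, PGC periglomerular cells, M/TC mitral and tufted cells, EPL-IN interneurons of the external plexiform layer, OSNs olfactory sensory neurons) and 22 non-neuronal clusters (among them Astro astrocytes, OEC olfactory ensheathing cells, OPC oligodendrocyte precursors and EC endothelial cells). A level is given as CPM, the share of a gene in the UMIs of the summed cells of a cluster in a library, scaled to a total of 1000000, with mean ± SD over the 6 libraries. The 3' counts carry no correction for length, so levels are compared between clusters and not between genes. Of the cell barcodes, 1427 occurred in 2 libraries and 34 in 3. Marker lists covered neurons, astrocytes, oligodendrocytes and their precursors, microglia, endothelium and blood, and none was used for the ensheathing, mural, mesenchymal, monocyte or macrophage clusters. Slc17a7, the vesicular glutamate transporter of excitatory neurons, peaked in n17-M/TC-3 with 2038 CPM. Aqp4, an astrocyte water channel, peaked in Astro1 with 1004 CPM, and Pdgfra, a receptor of oligodendrocyte precursors, in OPC with 772 CPM. Some listed markers peaked in other clusters. Gfap of the astrocyte list was highest in Astro2 (908 CPM, against 254 in Astro1). Cspg4 of the precursor list was highest in Mural2 (334 CPM, against 254 in OPC). OPC also held 4263 CPM of the 3 markers of myelinating oligodendrocytes and 718 CPM of the 3 markers of immature neurons. The cluster named n13-AstrocyteLike held mixed markers: 1250.0 CPM of the 4 astrocyte markers summed, the highest of the 18 neuronal clusters (next n02-PGC-1 with 864 CPM) but below the 7629 CPM of Astro1, with 1427 CPM of the 4 markers of inhibitory interneurons and 2221 CPM of the 3 markers of olfactory sensory neurons.

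RNA outside cells puts some UMIs into every droplet, so levels were read against EC1, endothelial cells that should lack these receptors. EC1 held 69 ± 9 CPM of Gria2, 21 ± 4 of Gria1, 20 ± 4 of Grin2b, 17 ± 7 of Grin1, 12 ± 3 of Gria3, 10 ± 5 of Grin2a, 9 ± 5 of Gria4, 6 ± 2 of Grin2c and 4 ± 3 of Grin3a (n = 6). Red blood cells held 56 ± 46 CPM of Gria2. EC2 held more, 375 ± 82 CPM of Gria2, and also a summed astrocyte marker level of 1507 CPM, against 247 CPM in EC1; the part of these markers in its Gria2 level was not tested. After each cell was thinned to 500 UMIs, 3.2% of EC1 cells had a Gria2 UMI and 0.7% a Grin2b UMI. No cell had fewer than 500 UMIs, so none was left out.

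Gria2, whose product governs calcium entry through AMPA receptors, was the most counted member, with 62032 UMIs in annotated cells. Its levels in n06-Transition were 2728 and 3183 CPM in control, 2889 and 2892 in naris occluded and 2876 and 3357 in olfactory trained libraries. The granule cells of n07-GC-2 read 2639 and 2770, 2581 and 2940, and 2799 and 3040 CPM in the same order. The means of these clusters, 2988 ± 234 and 2795 ± 174 CPM, did not differ beyond their spread, and both lay above n15-M/TC-1 with 2166 ± 210 CPM. At the lower end, n10-GC-4 held 659 ± 112 CPM, n17-M/TC-3 648 ± 92, n04-Immature 595 ± 72, n13-AstrocyteLike 284 ± 58 and n01-OSNs 141 ± 39 CPM, and only the last 2 steps of this order exceeded the spread. In thinned cells, 75.3% of n06-Transition, 73.2% of n07-GC-2 and 24.6% of n04-Immature had a Gria2 UMI. The median cell had 730 UMIs in n06-Transition and 882 in n07-GC-2, against 1668 in n04-Immature, and mitochondrial UMIs made up 15.2%, 17.4% and 8.4% of the median cell in turn; the part of depth in these levels was not tested.

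Gria1, another AMPA subunit and one known for its trafficking during synaptic plasticity, followed a different order. It was highest in n18-EPL-IN with 677 ± 212 CPM and n05-PGC-2 with 607 ± 75 CPM, which did not differ beyond their spread and which each led in 3 of 6 libraries. n02-PGC-1 came next, with 481 ± 36 CPM, below n05-PGC-2 beyond the spread. In n05-PGC-2 the libraries read 604 and 574 CPM in control, 749 and 563 in naris occluded and 535 and 619 in olfactory trained mice. The granule cells of n07-GC-2, where Gria2 was near its peak, held 293 ± 29 CPM of Gria1, and n04-Immature 73 ± 7 CPM.

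Gria3 divided the neurons more sharply. Its peak levels, 532 ± 40 CPM (n07-GC-2) and 489 ± 62 CPM (n06-Transition), did not differ beyond their spread, followed by 346 ± 63 in n12-GC-6 and 326 ± 77 in n14-GC-7. By contrast, n05-PGC-2 held 12 ± 10 CPM, n08-PGC-3 20 ± 22, n02-PGC-1 21 ± 10, and n17-M/TC-3 21 ± 12 CPM, none beyond the spread above the 12 ± 3 CPM of EC1, while n03-GC-1 held 27 ± 6 CPM, above it. After thinning, 23.6% of n07-GC-2 cells and 0.3% of n05-PGC-2 cells had a Gria3 UMI, against 0.7% of EC1 cells.

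Gria4, whose product forms AMPA receptors of rapid kinetics, stood highest in n16-M/TC-2 in all 6 libraries. The levels there were 595 and 729 CPM in control, 669 and 600 in naris occluded and 646 and 1228 in olfactory trained libraries. The mean of 744 ± 242 CPM rested on 161 UMIs in 116 cells, with 8 cells in the smallest library. It exceeded the 298 ± 74 CPM of n15-M/TC-1 beyond the spread, while the third mitral and tufted cluster, n17-M/TC-3, held 129 ± 41 CPM. n16-M/TC-2 was also the cluster with the most Eomes (739 CPM) and Slc17a6 (369 CPM), a transcription factor and a glutamate transporter of mitral and tufted cells. The other listed markers of these cells peaked elsewhere. Cdhr1 (2115 CPM, against 754 in n16-M/TC-2) and Slc17a7 (2038 CPM) were highest in n17-M/TC-3, and Tbx21 (32 CPM) in n15-M/TC-1.

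**Figure D1:**
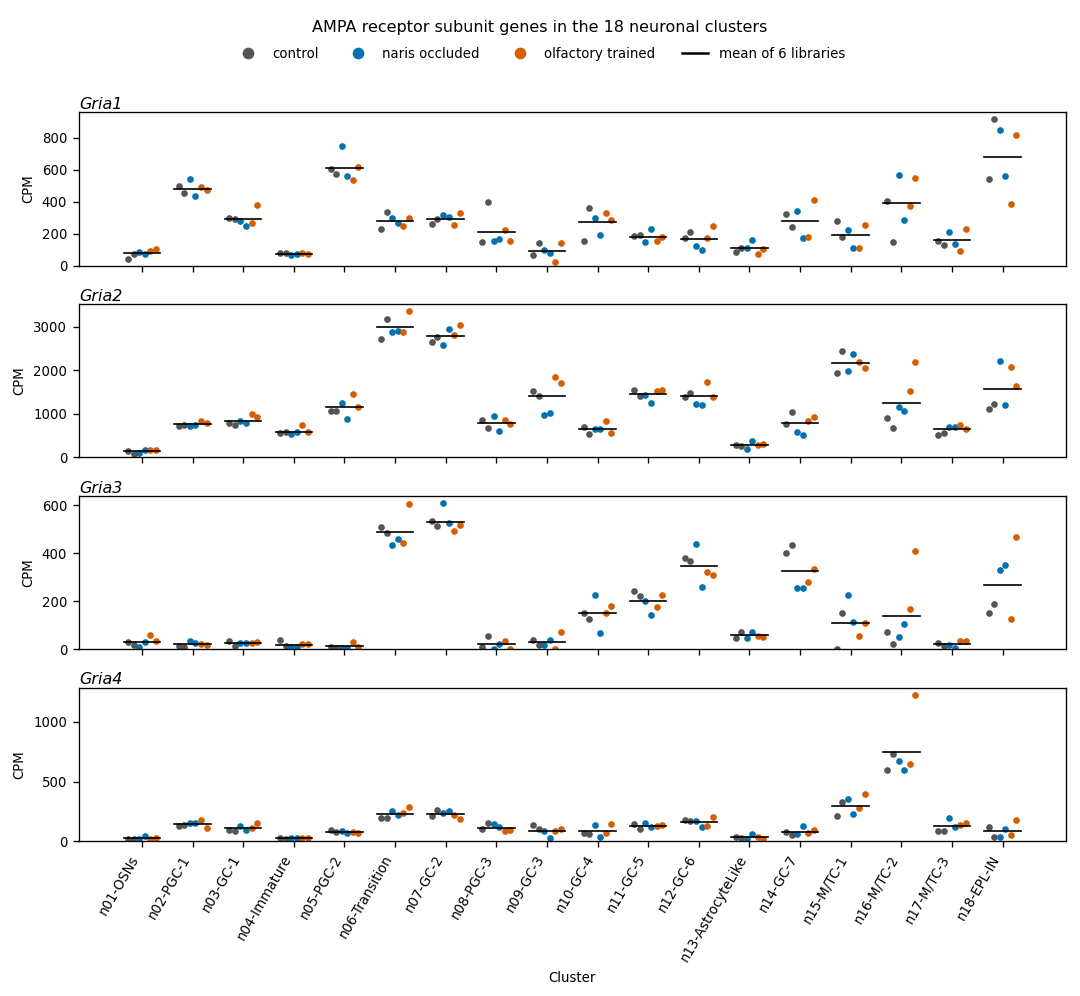
CPM of the 4 AMPA receptor subunit genes (y axis, linear) in the 18 neuronal clusters (x axis); each point is 1 library, coloured by condition, and the line is the mean of 6 libraries. Gria2 and Gria3 peak in n06-Transition and n07-GC-2, Gria1 in n18-EPL-IN and n05-PGC-2 and Gria4 in n16-M/TC-2, with 744 CPM.

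Because the 4 AMPA genes were counted in the same cells, their shares of the summed AMPA subunit UMIs give the make-up of each cluster. The mean share of Gria2 over the 18 neuronal clusters ran from 48.9% ± 4.8 in n16-M/TC-2 to 86.8% ± 4.1 in n09-GC-3 (SD, n = 6). In n04-Immature it held 83.7% ± 1.8. Gria1 held 34.3% ± 2.3 in n02-PGC-1 and 33.2% ± 4.0 in n05-PGC-2, against 7.6% ± 0.6 in n07-GC-2. Gria3 held 22.3% ± 2.8 in n14-GC-7 and 0.6% ± 0.5 in n05-PGC-2, and Gria4 held 30.9% ± 8.0 in n16-M/TC-2. Capture at the 3' end can differ between genes, so a share is set beside that of the same gene in other clusters and not beside that of another gene.

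Grin1, the subunit that every NMDA receptor holds, reached 587 ± 78 CPM in n07-GC-2, 535 ± 176 in n18-EPL-IN and 470 ± 86 in n06-Transition, and neighbours in this order did not differ beyond their spread. The next cluster, n11-GC-5, had 318 ± 61 CPM, below n06-Transition beyond the spread. n04-Immature held 36 ± 10 CPM, which did not differ beyond the spread from the 27 ± 12 CPM of n01-OSNs and lay above the 17 ± 7 CPM of EC1. In n07-GC-2 the libraries read 593 and 537 CPM in control, 618 and 478 in naris occluded and 586 and 710 in olfactory trained mice, and the naris occluded libraries lay on both sides of the control libraries.

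Grin2b, which gives NMDA receptors with slow decay and is typical of young neurons, was highest in n07-GC-2. In n07-GC-2 its levels were 1806 and 1882 CPM in control, 1902 and 1724 in naris occluded and 1687 and 2174 in olfactory trained libraries, the highest neuronal level in all 6 libraries. The mean of 1863 ± 175 CPM exceeded the 1525 ± 211 CPM of n06-Transition beyond the spread, which in turn exceeded the 893 ± 73 CPM of n11-GC-5. n04-Immature held 221 ± 24 CPM, above the 20 ± 4 CPM of EC1. Among excitatory clusters, n15-M/TC-1 held 374 ± 219, n16-M/TC-2 173 ± 88 and n17-M/TC-3 111 ± 41 CPM.

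Grin2a, whose product gives NMDA receptors with faster decay, was highest in n12-GC-6 with 290 ± 48 CPM, n07-GC-2 with 270 ± 24 and n14-GC-7 with 264 ± 38, and these did not differ beyond their spread. In n04-Immature it was 15 ± 6 CPM, against 10 ± 5 in EC1. The Grin2a share of the UMIs of Grin2a and Grin2b was 6.4% ± 3.0 in n04-Immature, 12.7% ± 1.4 in n07-GC-2 and 27.0% ± 2.4 in n12-GC-6. The share was higher in n12-GC-6 than in n04-Immature in 6 of 6 libraries, by 20.6 ± 4.1 percentage points (lowest 15.2, highest 24.6). The clusters were drawn from the expression of these cells, so this is a description with no test. The n12-GC-6 share was not the highest: n16-M/TC-2 held 41.3% ± 11.3, n08-PGC-3 33.2% ± 9.6, n14-GC-7 33.1% ± 12.6, n18-EPL-IN 31.3% ± 11.01, n01-OSNs 29.8% ± 15.2, n13-AstrocyteLike 29.2% ± 6.2 and n10-GC-4 27.5% ± 10.7, each with a wider spread and from fewer UMIs. EC1 had 31.8% ± 11.4.

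Grin2c, Grin3a and Grin2d were scarce in neurons. Grin2c had 653 UMIs in all neuronal clusters together, with 98 ± 58 CPM in n05-PGC-2 and 142 ± 84 in n15-M/TC-1, the latter from 21 UMIs. Grin3a, a subunit that lowers calcium entry and responds to glycine, had 305 UMIs in neurons, with 92 ± 43 CPM in n08-PGC-3 and 28 ± 47 or 33 ± 54 CPM in the clusters that followed. Grin2d had 17 UMIs in all annotated cells and passed the filter on low counts in no cluster, so its pattern was not detectable at this depth.

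**Figure D2:**
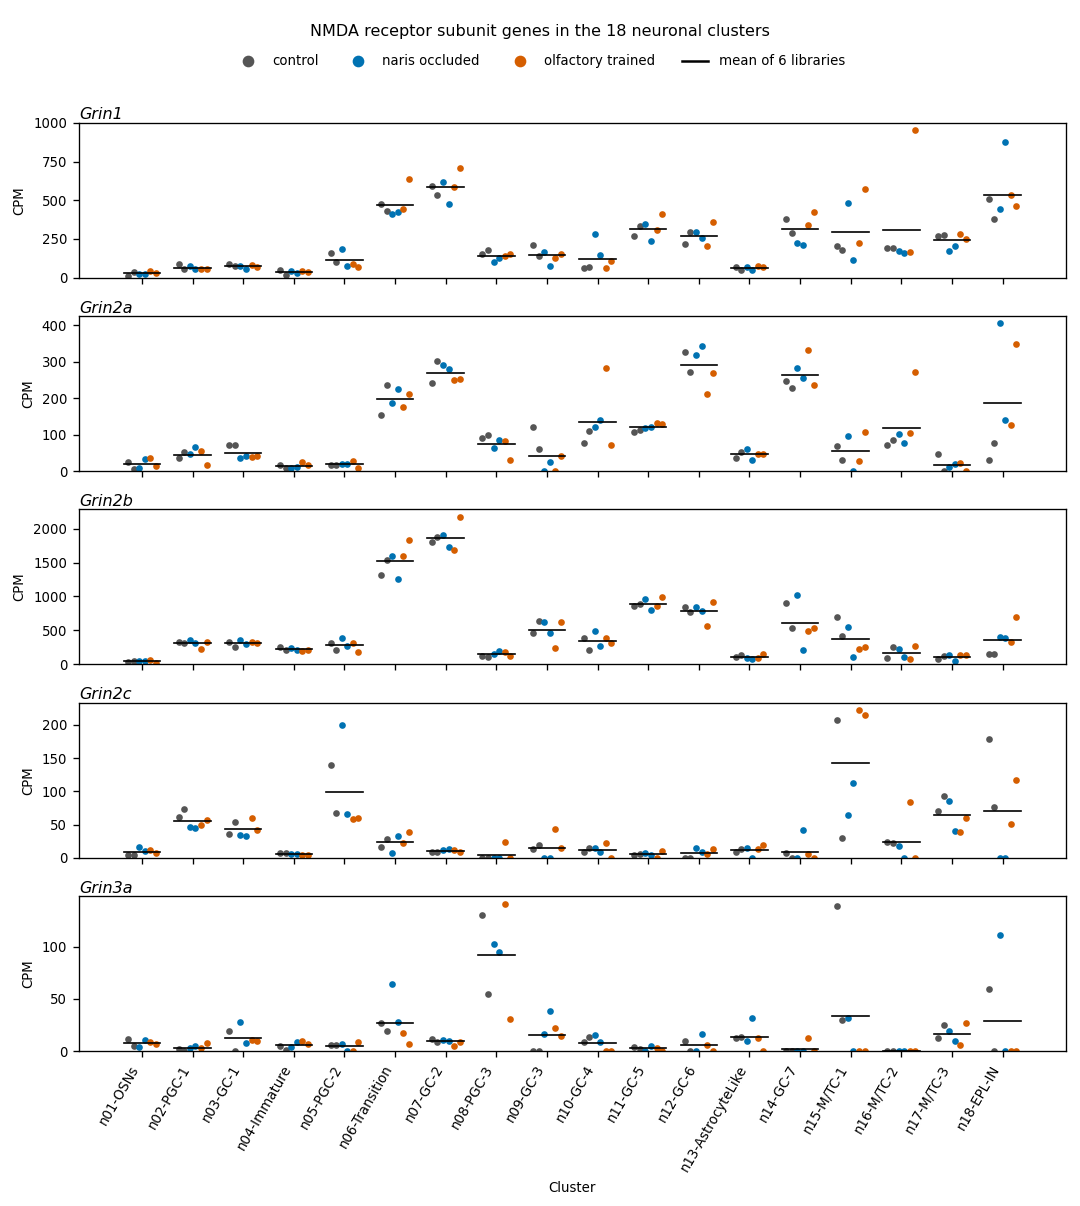
CPM of 5 NMDA receptor subunit genes (y axis, linear) in the 18 neuronal clusters (x axis); each point is 1 library, coloured by condition, and the line is the mean of 6 libraries. Grin2b is highest in n07-GC-2 in all 6 libraries, with a mean of 1863 CPM, while Grin2c and Grin3a stay low in most clusters.

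**Figure D3:**
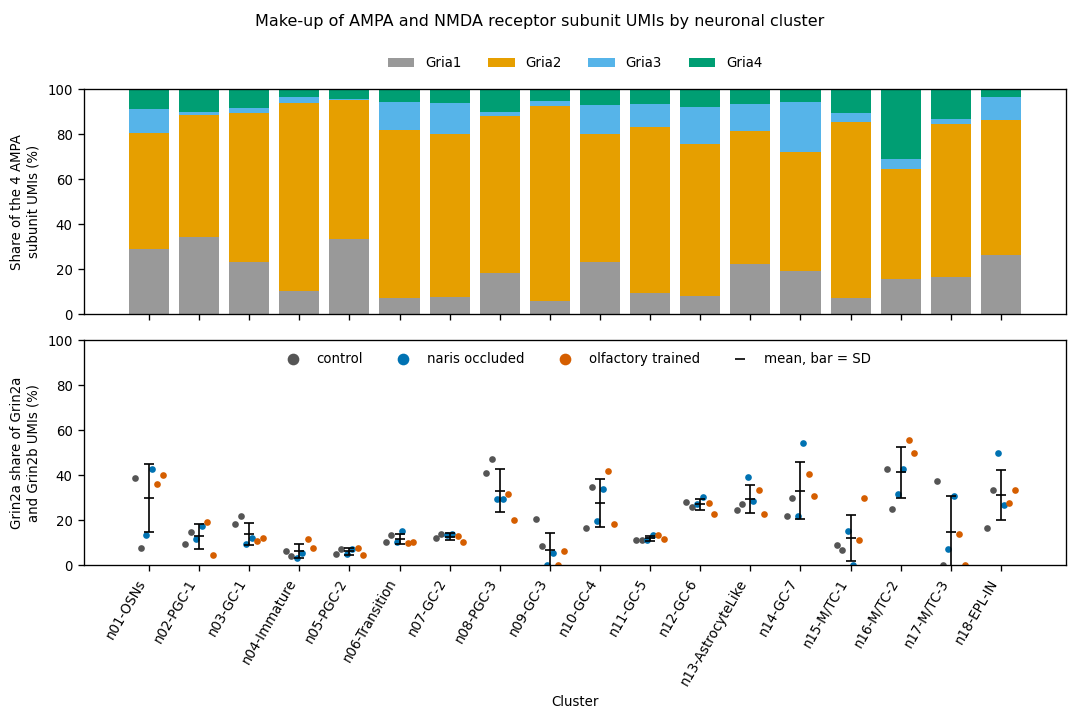
Upper panel, mean share (%) of each AMPA subunit gene in the AMPA subunit UMIs of each neuronal cluster; lower panel, Grin2a share (%) of Grin2a and Grin2b UMIs, 1 point per library with mean and SD. The Gria2 share is 48.9% in n16-M/TC-2, where Gria4 holds 30.9%, and 86.8% in n09-GC-3, and the Grin2a share is 6.4% in n04-Immature and 27.0% in n12-GC-6.

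From n04-Immature the study's pseudotime led along a pair of branches, axis A with 8 clusters (n02, n03, n05, n08, n10, n11, n12 and n14) and axis B with 3 (n06, n07 and n09). Differences here are log2 ratios of CPM plus 1 between the summed cells of an axis and n04-Immature, in mean ± SD over 6 libraries, given as a description since clusters and axes were drawn from the expression of these cells. Of the 10 members, 9 were higher on both axes by the mean ratio, and 8 of them in 6 of 6 libraries on both. The share of all genes that were higher on both axes was not computed, so this count is not read as particular to the members. Grin3a was higher on axis A in 5 of 6 libraries, and Grin2d, with 1 UMI in n04-Immature, gave no usable ratio. Of the members whose n04-Immature level lay beyond the spread above EC1, Grin1 had a ratio of 3.85 ± 0.38 on axis B and 2.34 ± 0.42 on axis A, and Gria4 3.20 ± 0.22 and 2.34 ± 0.14. Grin2b differed less from n04-Immature, by 2.91 ± 0.22 on axis B and 1.27 ± 0.17 on axis A, and Gria2 by 2.21 ± 0.16 and 0.86 ± 0.12. Gria1 had 2.02 ± 0.18 on axis A and 1.88 ± 0.25 on axis B, within the spread of each other, but 2.06 and 1.56 with the mean of the CPM of the clusters. For Gria3, Grin2a, Grin2c and Grin3a the n04-Immature level, 19 ± 11, 15 ± 6, 5.7 ± 0.8 and 6.0 ± 3.1 CPM, was not beyond the spread above EC1, so a ratio to it depends on the background and on the pseudocount and is not ranked. The levels of Gria3 were 120 ± 21 CPM on axis A and 485 ± 37 on axis B, and those of Grin2a 98.5 ± 9.7 and 232 ± 21 CPM. Axis B sums its cells, and n07-GC-2 held 13427 and n06-Transition 6850 AMPA subunit UMIs, against 611 in n09-GC-3. The axis B values thus say little of n09-GC-3. Its mean levels of Gria1, Gria2, Gria3, Gria4, Grin1, Grin2a and Grin2b lay below those of n07-GC-2 and n06-Transition. Its mean levels of Grin2c and Grin3a lay between those of n06-Transition and n07-GC-2. For Gria3 and Grin2a, n09-GC-3 also lay below n14-GC-7 and n10-GC-4 of axis A, though above n05-PGC-2. For Grin2b, n09-GC-3 had a lower mean than n14-GC-7, n12-GC-6 and n11-GC-5 of axis A, and a higher mean than n10-GC-4. Grin2c was higher in the summed cells of axis A, with 30.1 ± 5.1 CPM against 15.3 ± 3.6 on axis B. The Grin2c ratios to n04-Immature, 2.21 and 1.26, depend on the background as stated above. Of the axis A clusters, only n05-PGC-2, n03-GC-1 and n02-PGC-1 had a mean Grin2c level above n06-Transition. The rest of axis A lay below both n06-Transition and n09-GC-3, while n07-GC-2, also of axis B, lay below n10-GC-4. Neighbours in this order of Grin2c levels did not differ beyond their spread.

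Across the 18 neuronal clusters the members did not share 1 pattern. On log2(mean CPM + 5), Gria3 and Grin2a had the highest correlation of any pair of members, Pearson r = 0.91, and each was among the 3 genes most like the other out of 7020 compared. Gria2 and Grin2b had r = 0.83, Gria2 and Grin1 0.81, and Gria1 and Gria3 0.24. The gene most like Grin1 was Man2a2 (r = 0.95), that most like Gria2 was Ctage5 (0.94), like Grin2b Lyst (0.94), like Gria4 Fam135a (0.91), like Grin2c Slco3a1 (0.89), like Gria1 Nrsn2 (0.82) and like Grin3a Cabp1 (0.78). Besides Gria3, Grin2a was most like Chrm1 (0.90), a muscarinic acetylcholine receptor. The 18 points share libraries and differ in depth, so these values are descriptions.

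Outside neurons, Gria2 and Grin2c were highest in Astro1. Gria2 in Astro1 was 2529 and 2121 CPM in control, 2266 and 2187 in naris occluded and 2458 and 2352 in olfactory trained libraries, a mean of 2319 ± 158 CPM, which did not differ beyond the spread from the 2166 ± 210 CPM of n15-M/TC-1 and lay below n06-Transition and n07-GC-2. Gria2 made up 88.9% ± 1.3 of the AMPA subunit UMIs there. The inhibitory neuron markers summed to 357 CPM in Astro1. Astro2 held 813 ± 163 and Astro3 532 ± 174 CPM of Gria2. Gria1 was highest outside neurons in Astro2, with 276 ± 35 CPM, against 225 ± 29 in Astro1, a difference beyond their spread. Gria3 and Gria4 in Astro1 were 42 ± 7 and 23 ± 2 CPM. Grin1 was 10 ± 3 CPM in Astro1, not above the 17 ± 7 CPM of EC1, while Grin2b was 143 ± 19 CPM.

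Grin2c, an NMDA subunit known from the cerebellum and from astrocytes, had its highest level of all 40 clusters in Astro1. The libraries read 277 and 273 CPM in control, 282 and 232 in naris occluded and 335 and 323 in olfactory trained mice, a mean of 287 ± 37 CPM. The olfactory trained libraries were the highest and did not overlap with the others, but the log2 fold change of 0.36 ± 0.12 against naris occluded libraries missed the threshold (adjusted p = 0.34, edgeR). Astro3 followed with 107 ± 36 CPM, below Astro1 beyond the spread, and Astro2 held 23 ± 10 CPM. In thinned cells, 14.8% of Astro1 and 0.4% of EC1 had a Grin2c UMI.

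Grin3a was highest in OEC4, cells of the ensheathing glia that accompany olfactory axons, with 223 and 227 CPM in control, 217 and 177 in naris occluded and 207 and 223 in olfactory trained libraries. Its mean of 212 ± 19 CPM lay beyond the spread above OPC with 128 ± 34, Astro1 with 116 ± 29 and OEC2 with 115 ± 11 CPM, which did not differ in order beyond theirs. The ensheathing clusters differed among themselves, from 22 ± 4 CPM in OEC1 to OEC4, and 9.0% of thinned OEC4 cells had a Grin3a UMI against 0.2% of EC1 cells. Grin1 in OEC4 was 10 ± 4 CPM, also not above EC1.

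Oligodendrocyte precursors, which receive synapses from neurons, had 877 ± 50 CPM of Gria2, 154 ± 9 of Gria3 and 104 ± 13 of Gria4, the last 2 the highest outside neurons. Gria1 was 32 ± 17 CPM there. Myelinating oligodendrocytes held 101 ± 23 CPM of Gria2 and 18 ± 8 of Gria3. Gria3 also read 68 ± 7 CPM in OEC1, where it made up 48.9% ± 4.1 of the AMPA subunit UMIs. OEC1 also held 3643 CPM of the 3 endothelial markers, of which Cldn5 alone gave 3630 CPM. EC1 held 9871 CPM of these markers and less Gria3 than OEC1. The part of endothelial RNA in the OEC1 level was not tested. Microglia held 43 ± 14 CPM of Gria2 in MicroG1 and 51 ± 15 in MicroG2, below the 69 CPM of EC1. MicroG3 held more, 123 ± 49 CPM, together with 1143 CPM of the olfactory sensory neuron markers and 5674 CPM of the hemoglobin genes against 1179 CPM of the microglia markers, and their part was not tested.

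**Figure D4:**
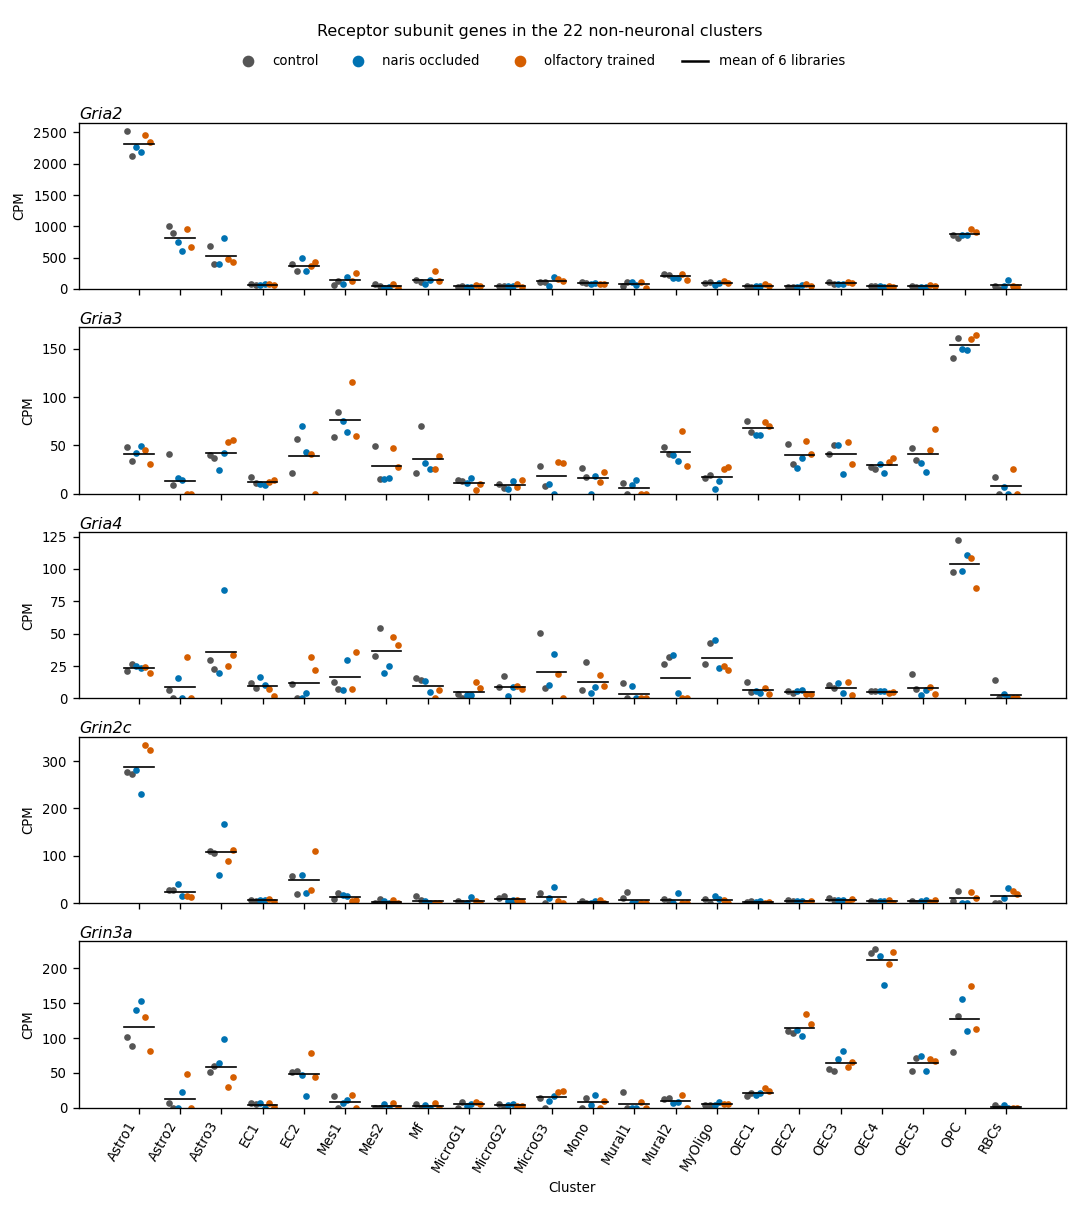
CPM of 5 receptor subunit genes (y axis, linear) in the 22 non-neuronal clusters (x axis); each point is 1 library, coloured by condition, and the line is the mean of 6 libraries. Gria2 and Grin2c peak in Astro1 (2319 and 287 CPM), Gria3 and Gria4 in OPC and Grin3a in OEC4 (212 CPM).

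Did naris occlusion or olfactory training change these genes? Training also brought water deprivation and reward, whose part cannot be told apart here from that of odour. UMIs were summed per cluster and library and fitted with edgeR's quasi-likelihood test, with p-values adjusted over all genes of a cluster by the method of Benjamini and Hochberg, in the 38 clusters with 10 or more cells in every library. Low counts left 180 pairs of member and cluster for each comparison: 36 for Gria2, 29 each for Gria1 and Grin2b, 24 for Grin1, 21 for Gria3, 13 for Gria4, 11 for Grin2a, 10 for Grin3a, 7 for Grin2c and none for Grin2d. At an adjusted p under 0.05 edgeR called 0 of 180 in each of the 3 comparisons. Over all pairs of gene and cluster, the call rate was 0.068% for naris occluded against control, 0.0932% for olfactory trained against control and 0.175% for olfactory trained against naris occluded. Unadjusted p-values under 0.05 were found for 15 pairs (8.33%) in naris occluded against control, where all pairs gave 4.78%, for 10 (5.56%, all pairs 5.73%) in olfactory trained against control and for 20 (11.1%, all pairs 7.21%) in olfactory trained against naris occluded. DESeq2 found 5, 2 and 3 such pairs and called 0. Groups of 2 libraries did not overlap in 59, 56 and 70 of the 180 pairs, and in 34.0%, 34.8% and 35.5% of all pairs of gene and cluster. The median width of the 95% interval of a log2 fold change was 1.31, 1.29 and 1.38 in the 3 comparisons.

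Gria2 and Grin2b in the granule cells of n07-GC-2 were among the best measured pairs. In n07-GC-2, Gria2 differed between naris occluded and control libraries by a log2 fold change of -0.05 (95% interval -0.30 to 0.21, edgeR), and Grin2b by -0.09 (95% interval -0.38 to 0.19, edgeR). The plot of intervals shows these among the narrowest.

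Gria3 in n04-Immature had the largest of the shifts with small p-values between naris occluded and control. The libraries read 38.1 and 12.8 CPM in control, 10.3 and 8.0 in naris occluded and 23.2 and 22.6 in olfactory trained mice. The log2 fold change was -1.61 ± 0.42 (SE; unadjusted p = 0.0012, adjusted p = 0.49, edgeR). The cluster held 128 Gria3 UMIs in all, and its naris occluded levels were at or below the 12 ± 3 CPM of EC1, so the level is within reach of free RNA, whose part was not tested. Control replicate 1 stood above the other 5 libraries, and without it the log2 fold change was -0.53 (adjusted p = 1.00, edgeR). The call depended on the settings, as it passed the threshold without a filter on low counts (adjusted p = 0.00499, edgeR) and without control replicate 2, where the log2 fold change was -2.07 (adjusted p = 0.021), and also without olfactory trained replicate 1 (0.015) or replicate 2 (0.016).

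Grin2a in n03-GC-1 was 72 CPM in both control libraries, 37.1 and 41.6 in naris occluded and 38.6 and 41.5 in olfactory trained libraries. Both manipulations lay below both controls, which the comparisons share, with log2 fold changes of -0.89 ± 0.28 (adjusted p = 0.59, edgeR) and -0.88 ± 0.33 (adjusted p = 0.76). Grin3a in Astro1 was 102 and 89.1 CPM in control, 140 and 154 in naris occluded and 131 and 82.0 in olfactory trained libraries, with a log2 fold change of 0.60 ± 0.17 for naris occluded against control (adjusted p = 0.71, edgeR). Gria2 in n09-GC-3 was 1520 and 1402 CPM in control, 979 and 1016 in naris occluded and 1843 and 1702 in olfactory trained libraries, and the olfactory trained against naris occluded comparison gave 0.84 ± 0.26 (adjusted p = 0.20, edgeR), the lowest adjusted p of any member.

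**Figure D5:**
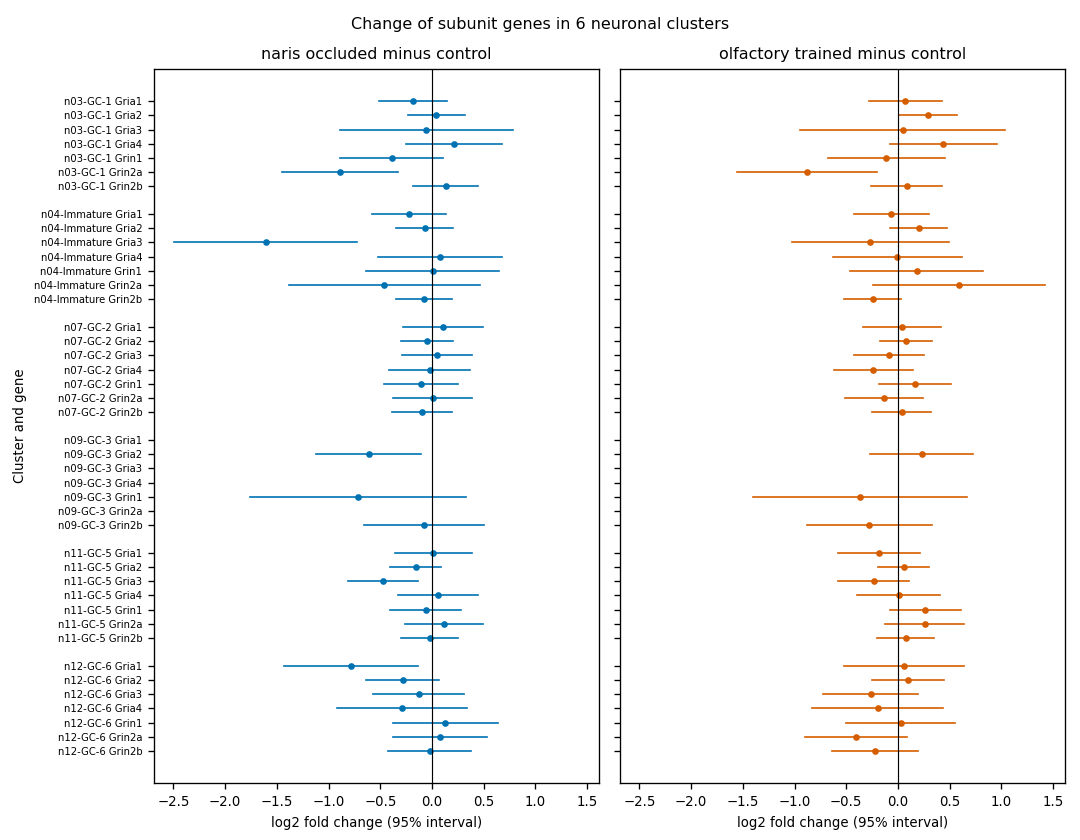
Log2 fold change and 95% interval (x axis, edgeR) of 7 subunit genes in 6 neuronal clusters (y axis), for naris occluded (left) and olfactory trained (right) against control; rows without a point were removed by the filter on low counts. Most intervals cross 0, and the widest departure is Gria3 in n04-Immature, at -1.61 for naris occluded.

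Proteins that hold, tune or edit these receptors were followed as a list of 49 genes, all in the table. Of the AMPA auxiliary subunits, which set trafficking and gating, Shisa9 (777 ± 182 CPM), Shisa6 (606 ± 188) and Cnih2 (312 ± 79) each had their neuronal peak in n16-M/TC-2, as did Gria4. Cacng4 reached 453 CPM in OPC, above its neuronal peak of 106 ± 58 CPM in n08-PGC-3. Of the kainate and delta receptor genes with their partners, Grik5 reached 197 ± 36 CPM in n07-GC-2, Neto2 128 ± 38 in n17-M/TC-3 and Grik3 121 ± 68 in n14-GC-7. Among the scaffold genes Dlgap1 reached 1070 ± 132 CPM in n12-GC-6, Dlgap4 352 ± 55 in n06-Transition and Homer2 319 ± 42 in n05-PGC-2. Of the ADAR gene family, Adarb1, which edits the Gria2 transcript, reached 197 ± 72 CPM in n15-M/TC-1 and 180 in n12-GC-6. Adarb2 reached 135 ± 71 CPM in n10-GC-4 and Adar 97 ± 53 in n15-M/TC-1. Editing was not measured, and the Adarb2 level is not read as editing. The D-serine and glycine transporters Slc7a10 and Slc6a9 peaked in Astro1, with 653 and 454 CPM, where Grin2c peaked too; Srr, which makes D-serine, reached 25 ± 9 CPM among neurons in n03-GC-1 and 31.3 CPM in OPC.

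Of this list, 0 of 544 pairs of gene and cluster passed in naris occluded against control, 1 rose in olfactory trained against control and 4 rose in olfactory trained against naris occluded, and none fell, beside 0.068%, 0.0932% and 0.175% of all pairs of gene and cluster called in either direction. The list was chosen with earlier results of these data known, so setting these calls beside that rate is a description. All 5 belonged to Homer1 and Nptx2, both known as genes induced by neuronal activity, the first encoding a scaffold of postsynaptic receptors and the second a secreted pentraxin that gathers AMPA receptors. Homer1 in n11-GC-5 was 78.5 and 95.6 CPM in control, 72.5 and 84.1 in naris occluded and 195 and 159 in olfactory trained libraries. Olfactory trained libraries exceeded all others, by a log2 fold change of 1.06 ± 0.20 against control (adjusted p = 0.025, edgeR) and 1.19 ± 0.19 against naris occluded (adjusted p = 0.0014). In n12-GC-6, Homer1 rose by 1.54 ± 0.37 against naris occluded (adjusted p = 0.020), a call lost with the replicate block (log2 fold change 1.54, adjusted p = 0.078), without a filter on low counts (1.56, adjusted p = 0.063) and with only the 4 libraries compared (1.51, adjusted p = 0.11). Nptx2 in n11-GC-5 was 9.64 and 19.6 CPM in control, 8.06 and 9.20 in naris occluded and 29.4 and 40.3 in olfactory trained libraries, a rise of 1.97 ± 0.45 against naris occluded (adjusted p = 0.046, edgeR), and in n07-GC-2 it rose by 1.37 ± 0.29 (adjusted p = 0.032). Outside neurons Nptx2 reached 11.2 CPM, in EC2. The naris occluded levels and the lower control level in n11-GC-5 are thus within reach of free RNA, whose part was not tested. In cells with at least 1000 UMIs both Nptx2 calls were lost, with 1.94 in n11-GC-5 (adjusted p = 0.062, edgeR) and 1.09 in n07-GC-2 (adjusted p = 0.89), and the n11-GC-5 call was also lost with only the 4 libraries compared (adjusted p = 0.062). DESeq2 called none of the 5, with adjusted p from 0.070 upward. Without olfactory trained replicate 1, the shallowest library, all 5 missed the threshold, with log2 fold changes from 0.87 to 2.18. Homer1 in n11-GC-5 against naris occluded held without any other library, while the other 4 were also lost without at least 1 further library of those compared (adjusted p from 0.061 to 0.80, log2 fold changes 0.89 to 2.09). In the same clusters the subunit genes themselves did not pass: in n11-GC-5 the olfactory trained against control values were 0.05 (95% interval -0.19 to 0.30, edgeR) for Gria2 and 0.07 (95% interval -0.20 to 0.35, edgeR) for Grin2b.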

How the data were processed

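Cells of 6 libraries were captured with 10x Chromium 3' chemistry. The authors deposited UMI counts per gene and barcode without normalization, made per the labels with Cell Ranger 2.0.0 on mm10, and annotations from Seurat 2.2.1 holding cluster, library and mitochondrial fraction for every cell. Of 52549 barcodes, 51426 were annotated and 21746 belonged to the neuronal annotation. Library was taken from the annotation, because the barcode starts of the olfactory trained libraries are exchanged against it. The plan of the tests named the annotation columns the wrong way round; the neuronal one was used for neurons.

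Counts were summed per cluster and library and divided by their total (CPM). Conditions were compared with edgeR 4.0.16 in R 4.3.3 (quasi-likelihood, TMM, filterByExpr, all 6 libraries in 1 fit), or DESeq2 1.42.0 as an alternative; the fit was tested on simulated data. With 2 libraries against 2, an exact permutation test cannot give p below 0.333, so none was run. Per the study's methods doublets were removed from the data, and no further caller was run. Named genes were the members, the 3 genes most like each and a list of partners: those past the threshold, otherwise the 3 with the highest levels of each subgroup. Members and lists were chosen with earlier results of these data known. Alternatives left out each library, filtered cells or genes, or changed the scaling. A normalized table deposited by the authors was not used here.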

Additional observations from a re-analysis of the deposited data

Results flagged for a closer look

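The Grin2c levels of olfactory trained libraries lay below both controls on axis A and above both on axis B. Axis A read 32.1 and 35.5 CPM in control, 35.3 and 22.4 in naris occluded and 27.6 and 28.0 in olfactory trained libraries, a log2 ratio of mean CPM of -0.28. Axis B read 11.5 and 16.49 CPM in control, 10.2 and 17.8 in naris occluded and 16.63 and 19.3 in olfactory trained libraries, a log2 ratio of 0.36, from 85 UMIs in all. The naris occluded libraries alone spanned most of the range on both axes, and the difference between the axes was not tested.

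Cells of the whole-bulb neuronal group N11 that the neuronal annotation leaves out, 660 of its 951 cells with a median of 2169.5 UMIs, enter no comparison above. They held more of 9 members than EC1 in every library. The means were 3245 ± 741 CPM for Gria2, 949 ± 296 for Grin2b, 442 ± 154 for Grin1, 409 ± 113 for Gria3, 322 ± 61 for Gria1, 280 ± 62 for Gria4, 170 ± 52 for Grin2a, 100.3 ± 12.1 for Grin2c and 34.4 ± 12.8 for Grin3a (SD, n = 6). Their Gria2 level ranged from 2234 CPM in a naris occluded to 4360 CPM in an olfactory trained library, and no test was run on it.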

How the results depend on the processing

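The number of members called was 0 in all 3 comparisons with the replicate block, DESeq2, RLE normalization, only the 4 libraries compared, cells with at least 1000 UMIs and mitochondrial genes left out. Without a filter on low counts it was 1 in naris occluded against control (Gria3 in n04-Immature). Leaving out each library gave 0 to 1 in each comparison. The calls were Gria3 in n04-Immature without control replicate 2 or either olfactory trained library, Gria2 in Mes1 (olfactory trained against control, without olfactory trained replicate 1), Grin2c in n05-PGC-2 (olfactory trained against naris occluded, without naris occluded replicate 2) and Gria2 in Mf (the same comparison, without olfactory trained replicate 2). Same-numbered libraries deviated together over 9192 genes in summed neurons (correlations 0.37 to 0.41); with the replicate block Homer1 in n12-GC-6 had adjusted p = 0.078 (edgeR), and the other 4 calls of partner genes kept their side of the threshold.

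The highest neuronal cluster of a member changed for 1 to 2 of 10 members under another choice of cells, scaling or control libraries alone: Grin2a to n14-GC-7 with totals free of mitochondrial genes, Grin1 to n18-EPL-IN in cells with at least 1000 UMIs, Gria1 and Grin2d to n05-PGC-2 with the mean of single-cell CPM, and Grin2c and Grin2d in the 2 control libraries. Leaving out 1 library cannot move a mean by 1 SD of the 6 libraries, so that alternative was no check on the log2 ratios along the axes. With the mean of the CPM of the clusters, axis A gave 0.72 for Gria2 and 1.06 for Grin2b, and axis B gave 1.56 for Gria1, 2.01 for Gria2, 2.95 for Gria4 and 2.55 for Grin2b. With a pseudocount of 5 CPM, axis A gave 2.16 for Gria4 and 1.71 for Grin2c. In cells with at least 1000 UMIs, axis B gave 2.00 for Gria2 and 2.78 for Gria4. The Grin2a share difference between n12-GC-6 and n04-Immature moved by less than 1 SD in cells with at least 1000 UMIs and with the mean over single cells. Leaving out 1 library could not have moved this difference by 1 SD. Grin2d, Grin2c and Grin3a had the fewest UMIs in neurons, with 8, 653 and 305. The clusters n15-M/TC-1 and n16-M/TC-2 had under 10 cells in a library and were not tested.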
